A study of Arabidopsis thaliana with 10 samples.

Results

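Rosettes of the Arabidopsis thaliana mutant vtc1 were set against rosettes of wild-type Col 0 on single-colour oligonucleotide arrays. The comparison took every array that the titles give as a vtc1 rosette (n = 4) and every array given as a Col 0 rosette (n = 3), 7 of the 10 arrays of the study. The other 3 arrays were of abi4-102 rosettes, a mutant of the transcription factor ABI4 that acts in abscisic acid signalling. They were used to share the estimate of spread and to test where vtc1 differed from another mutant. For some groups and genes the change of abi4-102 from the same wild-type arrays is given as well. All plants were 42 days old, were grown on compost in short days and no treatment is labelled, so genotype was the labelled difference between the groups. The labels call the replicates biological, expand vtc1 as vitamin C defective 1, name no allele or parent line, and do not say whether a replicate was 1 plant or a pool. The hour of harvest is not given in them.

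VTC1 is the GDP-mannose pyrophosphorylase that joins mannose-1-phosphate and GTP into GDP-mannose. In plants GDP-mannose feeds the main route to ascorbate, the most abundant soluble antioxidant of leaves, and it also supplies the mannose of N-glycans, of glycosylphosphatidylinositol (GPI) anchors and of cell wall mannans. N-glycans are added to proteins as they enter the endoplasmic reticulum, where chaperones read their trimming state, and the unfolded protein response raises chaperone and export genes when folding falls behind. Ascorbate and glycans were not measured here. No probe set is annotated to VTC1 alone, so its transcript was not analysed here.

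A value is the authors' deposited linear intensity of a probe set, analysed as log2(value + 1), and log2 changes are vtc1 minus wild type on that scale, which understates the change of dim probe sets. Of 22746 probe sets, 8327 (36.6%) were called at a limma adjusted p under 0.05, 4123 higher (18.1%) and 4204 lower (18.5%) in vtc1. The split followed the scaling: it was 3410 higher and 5965 lower after each array's median was subtracted, and 10274 higher and 1217 lower after scaling on the hybridization spike-in probe sets, which lay lower on the vtc1 arrays (log2 means of 8.43 to 8.73) than on the wild-type arrays (8.78 to 8.88). Spike-in scaling moved the median log2 change of all genes from -0.03 to 0.20, a shift of 0.24, so every change below is relative to the bulk of the transcripts. The 13355 genes with a probe set of their own, 1 representative each, form the background for the counts below: 15.2% were called higher and 18.2% lower, 33.4% in all. Among the called genes the median absolute log2 change was 0.34, and only 1.36% of all genes were called higher and 0.599% lower by 2-fold or more. Most of the response was made of shifts well under 2-fold, and it is described by groups of genes with a shared function. Genes without a symbol in the annotation used are given by locus code; they were placed on the lists from general knowledge of Arabidopsis genes, and no role is given to them singly. In whole rosettes, fewer cells of a type and less RNA per cell cannot be told apart. The actin control probe sets, whose 3' signal exceeds the 5' signal by more as RNA breaks down, differed by 1.69 to 2.10 (log2) on the wild-type arrays and by 1.49 to 1.67 on the vtc1 arrays, and the part of this difference in the results below was not tested. Few markers of single cell types had a probe set of their own. Of the rosette leaf markers only RCA, Rubisco activase, was measured, at 7468 ± 52.8 (SD, n = 3) in wild type and 6674 ± 159 (n = 4) in vtc1, lower as called and not called under spike-in scaling, where the log2 change turned to 0.07. Its call was also lost on leaving out any 1 of the 3 wild-type arrays or one of vtc1 arrays 2 and 3 (limma adjusted p = 0.0525 to 0.0699), with quantile normalization (0.0921) and with the replicate block (0.0665), and that of EXPA7, a root hair expansin, without wild-type array 2 (0.0647). Of 2 guard cell, 1 phloem and 3 root markers measured, AT1G22690, AT5G18600 and EXPA7 were called lower, with log2 changes of -0.40, -0.21 and -0.34, and none of them was called under spike-in scaling. AT5G18600 also lost its call with the replicate block (0.0505). None of the 2 flower and pollen markers and the 1 seed marker measured was called.

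**Figure D1:**
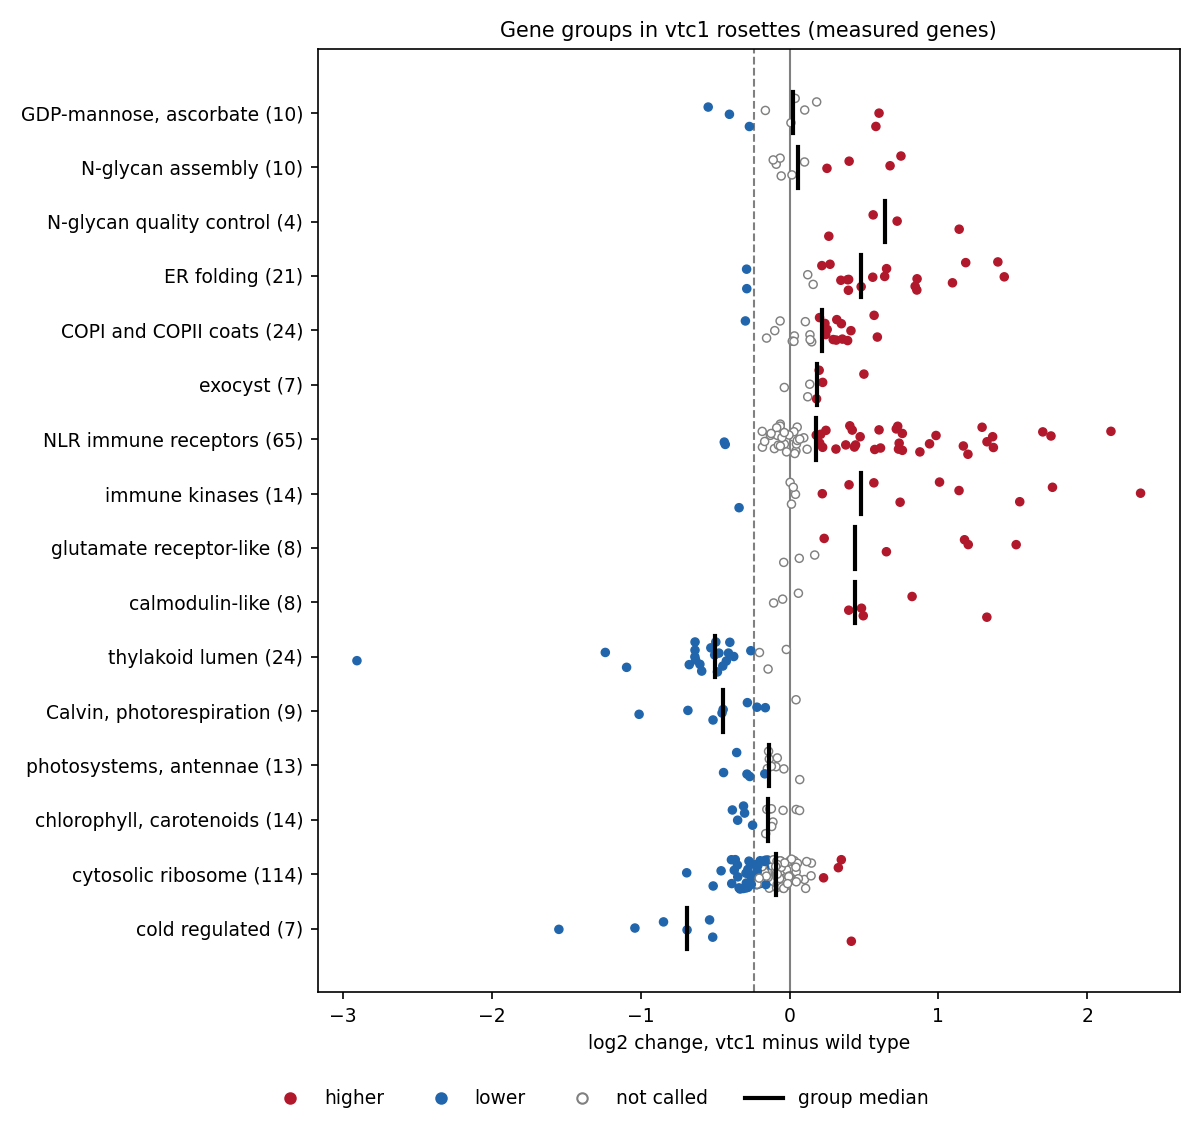
Log2 change (vtc1 minus wild type) of every measured gene in 16 gene groups. Each point is 1 gene, filled where it was called at a limma adjusted p under 0.05, the bar is the group's median, the solid grey line is 0 and the dashed line lies 0.24 to its left, where a gene unchanged under spike-in scaling would lie. Groups of the secretory pathway and of immune reception lie mostly to the right of 0, and groups of the chloroplast mostly to the left.

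The genes that make and use GDP-mannose on the way to ascorbate did not move in 1 direction. Of 10 measured genes out of 19 listed, 2 rose and 3 fell, against 15.2% and 18.2% of all genes. The median log2 change was 0.02. PMM, the phosphomannomutase that forms mannose-1-phosphate, the substrate of VTC1, read 879, 920.1 and 864 on the 3 wild-type arrays and 1268, 1509, 1218 and 1332 on the 4 vtc1 arrays. All vtc1 arrays were above all wild-type arrays, a 1.5-fold rise (limma adjusted p = 7.8e-06). GER2, named for GDP-4-keto-6-deoxymannose epimerase-reductase activity, which takes GDP-mannose towards GDP-fucose, read 179, 204 and 189 in wild type and 287, 298, 292 and 282 in vtc1. That was a 1.52-fold rise without overlap (limma adjusted p = 1.1e-06). VTC4, which removes the phosphate from galactose-1-phosphate further down the ascorbate route, read 906, 883 and 923 in wild type and 628, 594, 593 and 662 in vtc1, a 1.46-fold fall (limma adjusted p = 1.9e-05). The last enzyme of the route, GLDH, and the epimerase GME, which acts directly on GDP-mannose, were not called, with log2 changes of -0.16 and 0.04, although GLDH was called lower without wild-type array 2 (-0.21) and under 4 of the other settings tried, and GME higher under spike-in scaling (0.27), where the list had 6 genes higher and 1 lower.

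The genes that assemble N-glycans and check glycoprotein folding gave more rises than falls. On the list of precursor assembly and transfer, 4 of 10 measured genes rose and 0 fell, against 15.2% and 18.2% of all genes. GPT, the enzyme that starts the dolichol-linked precursor, rose 1.60-fold, from 146 ± 12.6 (SD, n = 3) to 234 ± 7.93 (n = 4; limma adjusted p = 1.0e-06). The largest rise on that list was in AT2G44660, 1.68-fold to 98.7 ± 4.47. On the list of glycan trimming and quality control all 4 measured genes rose, of 21 listed, with a median log2 change of 0.64. CRT1b, a calreticulin that binds monoglucosylated glycoproteins, read 678, 705 and 706 in wild type and 1569, 1571, 1539.8 and 1467 in vtc1. Every vtc1 array was more than 2-fold above every wild-type array, a 2.20-fold rise (limma adjusted p = 1.5e-10). AT5G07340 rose 1.65-fold and AT2G05320 1.48-fold, while GMII, the Golgi mannosidase II that trims mannose after the glycan has left the endoplasmic reticulum, rose 1.20-fold. In the test of vtc1 against abi4-102, 3 of these 4 were higher in vtc1 and 0 lower, where 14.6% and 21.2% of all genes were, with CRT1b apart by 1.19 on the log2 scale (limma adjusted p = 3.7e-10).

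Protein entry into the endoplasmic reticulum, folding and disposal formed the group with the largest share of rises among those with at least 20 measured genes. Of 21 measured genes out of 49 listed, 17 rose and 2 fell, against 15.2% and 18.2% of all genes. The median log2 change was 0.48 against -0.03 over all genes. ATERDJ3B, a J-domain co-chaperone of the lumen, read 438, 462 and 462 in wild type and 1234, 1269.5, 1254 and 1186 in vtc1. The groups were far apart, with every vtc1 array more than 2-fold above every wild-type array, and the rise was 2.72-fold (limma adjusted p = 1.3e-11). AT3G60540, a listed gene with no symbol in the annotation used, rose 2.64-fold, from 238 ± 3.15 (SD, n = 3) to 631 ± 17.9 (n = 4). The 2 listed genes that fell, AT1G78720 and AT3G48570, changed by -0.29 and -0.29 on the log2 scale, and neither was called under spike-in scaling. AT1G78720 also lost its call without wild-type array 2 (limma adjusted p = 0.0514).

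Among the regulators, the 3 measured bZIP factors that sense or transmit endoplasmic reticulum stress all rose. BZIP60, whose messenger is spliced by IRE1, read 381, 343 and 346 in wild type and 731, 747, 802 and 773 in vtc1, a 2.14-fold rise (limma adjusted p = 9.3e-10). BZIP28 and BZIP17, which reside in the membrane until they are cut in the Golgi, rose by less, 1.32-fold and 1.31-fold. No other measured bZIP gene was called higher: of 22 measured bZIP genes 3 rose and 1 fell, with a family median of -0.02. The disposal side rose as well. OS9, a lectin that selects misfolded glycoproteins for export to the proteasome, rose 1.80-fold to 139.9 ± 2.02 (SD, n = 4), and the Derlin genes DER1 and DER2.1, which act in retrotranslocation, rose 1.81-fold and 1.40-fold. DER2.2 was not called, with a log2 change of 0.12, but was called higher under spike-in scaling (0.36). UBC32, an endoplasmic reticulum ubiquitin-conjugating enzyme of the same disposal route, was the gene with the largest rise among 13 measured enzymes of its class, 1.46-fold (limma adjusted p = 1.4e-06). The Sec63-type genes ATERDJ2A and ATERDJ2B of the translocon rose 1.16-fold and 1.27-fold, the first only just past the threshold (limma adjusted p = 0.0496), and its call was lost on leaving out any 1 of the 3 wild-type arrays or one of vtc1 arrays 1 and 2 (0.0874 to 0.152) and under 4 of the other settings tried. Of the 21 genes, 13 were higher in vtc1 than in abi4-102 and 3 lower. The median log2 change of the group in abi4-102 against the same wild-type arrays was 0.35.

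**Figure D2:**
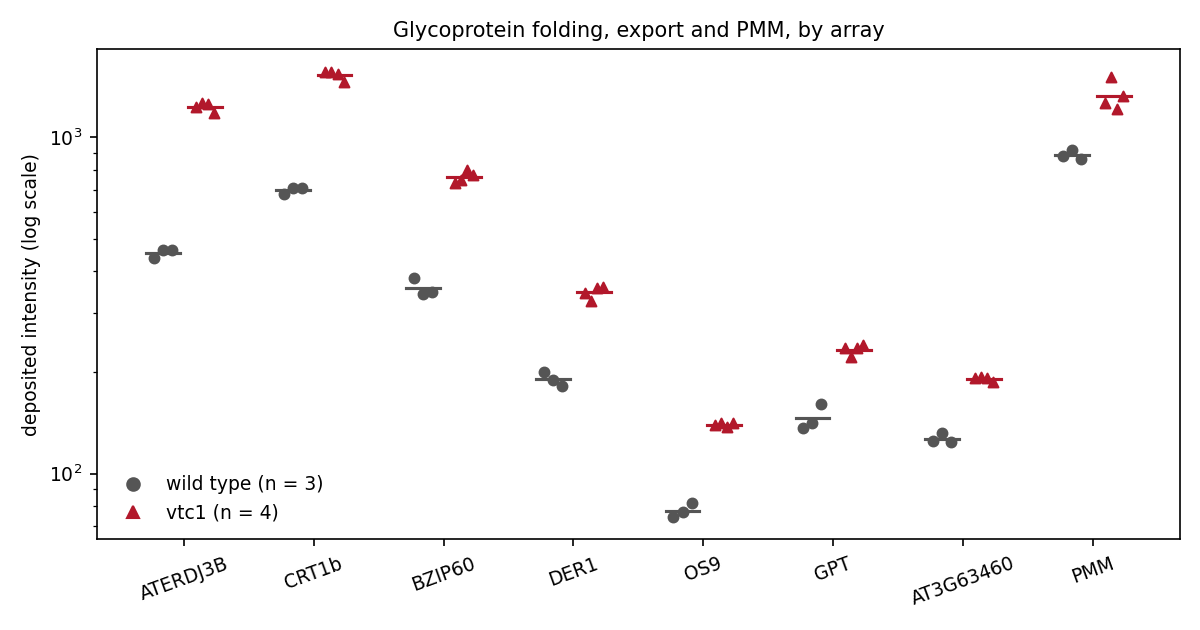
Intensity of 8 genes on each array (log scale), with circles for wild type (n = 3), triangles for vtc1 (n = 4) and a bar at each group's mean. The genes are of glycoprotein folding, disposal and export, with GPT of N-glycan assembly and PMM of GDP-mannose supply. For each gene every vtc1 array lies above every wild-type array.

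Coat and tether genes of the secretory pathway rose by smaller amounts. The shares of all genes to set beside the counts here were 15.2% higher and 18.2% lower. Of 24 measured genes for COPI and COPII coats, which carry cargo between the endoplasmic reticulum and the Golgi, 13 rose and 1 fell, with a median log2 change of 0.22. The largest rise was in AT3G63460, which the gene table also calls SEC31B, an outer COPII coat subunit. It read 125, 132 and 124 in wild type and 192, 194, 192 and 187 in vtc1, a 1.51-fold rise without overlap (limma adjusted p = 1.5e-06). CEF, a SEC24-type cargo adaptor of the same coat, rose 1.48-fold. Of these 24 genes, 12 were higher in vtc1 than in abi4-102 and 0 lower. The exocyst tethers secretory vesicles to the plasma membrane, and 4 of its 7 measured genes rose, led by SEC6 (1.41-fold, from 141 ± 19.0 to 199 ± 19.4). The others were SEC15B, EXO84B and SEC5B, with log2 changes of 0.22, 0.20 and 0.18. These 3 calls were weak: SEC5B lost its call without any 1 of the 7 arrays (limma adjusted p = 0.0540 to 0.170), EXO84B without wild-type array 1 or 2 or vtc1 array 1, 2 or 3 (0.0511 to 0.135) and SEC15B without wild-type array 1 (0.0765). All 3 were also lost with the replicate number as a block (0.0659 to 0.0823) and with array medians subtracted (0.0516 to 0.114), and SEC15B with quantile normalization (0.0542). All 7 measured exocyst genes were higher in vtc1 than in abi4-102, where their median log2 change against wild type was -0.24. Of 6 measured genes for SNAREs and their regulators, SEC22, the SNARE of traffic between the endoplasmic reticulum and the Golgi, rose 1.43-fold and KEU, an SM protein of cell plate fusion, 1.23-fold. For GPI anchors, which use GDP-mannose-derived mannose, 4 of 11 measured genes rose and 1 fell, with a median log2 change of 0.10. SETH1 and SETH2, which act at the first step of the anchor, were not called, at log2 changes of -0.05 and 0.15, although SETH2 was called higher under spike-in scaling (0.38).

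Genes for intracellular immune receptors were the largest family that rose more often than it fell. These are the nucleotide-binding leucine-rich repeat (NLR) receptors and related TIR-domain proteins, which recognise pathogen effectors inside the cell. Of 65 measured genes out of 114 listed, 33 rose and 2 fell, against 15.2% and 18.2% of all genes, and 9 rose by 2-fold or more. The median log2 change was 0.18, and 22 of the 65 lay at or below the level of the Bacillus control probe sets on all 7 arrays. AT3G44630 read 55.0, 49.9 and 57.0 in wild type and 266, 264, 216 and 235 in vtc1. Its rise of 4.47-fold (limma adjusted p = 4.9e-12) was the largest of the family. AT1G63880 rose 3.38-fold to 262 ± 3.73 (SD, n = 4) and AT1G66090 3.25-fold to 65.4 ± 8.97. CSA1, a receptor linked to photomorphogenesis and defence, rose 2.45-fold, from 42.1 ± 4.24 (SD, n = 3) to 104 ± 5.85. The members that fell were LOV1, a receptor for sensitivity to a fungal toxin, by 1.35-fold and AT5G47250 by 1.36-fold. Neither was called under spike-in scaling (log2 changes -0.20 and -0.20), where 45 members were higher and none lower. Against abi4-102, 24 members were higher in vtc1 and 0 lower. A run of 4 neighbouring measured genes on chromosome 1, AT1G72890, AT1G72900, AT1G72920 and AT1G72940, all of this list, rose together with log2 changes of 0.74, 0.98, 1.17 and 0.94. Probe sets of neighbouring copies can take up each other's transcripts, and that was not tested.

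Receptors at the cell surface and their signalling partners rose too. Of 14 measured genes listed for pattern recognition and immune kinases, 9 rose and 1 fell, against 15.2% and 18.2% of all genes. The median log2 change was 0.48. AT1G35710 read 170.2, 175 and 175 in wild type and 906, 869, 940.4 and 859.8 in vtc1, a 5.13-fold rise. AT1G51890 rose 3.40-fold and AT1G74360 2.92-fold. With AT1G51850 and AT1G51860, AT1G51890 formed a run of 3 neighbouring genes that rose, and uptake of each other's transcripts was not tested. BIK1, the cytoplasmic kinase that relays signals from several pattern receptors, rose 1.48-fold (limma adjusted p = 1.3e-05). EFR, the receptor for a bacterial elongation factor peptide, was not called, with a log2 change of 0.01, but was called higher under spike-in scaling (0.25). No gene of this list was lower in vtc1 than in abi4-102, and 9 were higher.

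Calcium-linked families shared the direction. Glutamate receptor-like genes encode calcium-permeable channels, and 5 of 8 measured rose with none called lower, against 15.2% and 18.2% of all genes. Among the 5, GLR2.9, GLR2.8 and GLR2.7 formed a run of 3 neighbouring genes. Whether their probe sets take up each other's transcripts was not tested. GLR2.8 read 19.4, 17.3 and 15.6 in wild type and 53.0, 53.4, 52.3 and 48.6 in vtc1, a 2.87-fold rise (limma adjusted p = 1.2e-10). Its wild-type arrays were near control level (18.1, 16.7 and 16.8 on those arrays), so that fold is uncertain. GLR1.4 rose 2.30-fold and GLR2.7 2.26-fold. GLR3.3, GLR3.5 and GLR3.6 of the clade known for wound signals were not called, with log2 changes of 0.17, 0.07 and -0.04, but GLR3.3 was called higher without wild-type array 3 (0.24), and GLR3.3 and GLR3.5 under spike-in scaling (0.40 and 0.30). Of the 8 genes, 6 were higher in vtc1 than in abi4-102. Of 8 measured calmodulin-like genes, which encode calcium sensors, 5 rose. CML37 was at control level on all wild-type arrays and rose to 16.7, 17.9, 16.9 and 20.1 on the vtc1 arrays, which gives a bound of at least 1.04-fold (limma adjusted p = 4.7e-10). CML38 was at control level in wild type as well and was at least 1.47-fold higher in vtc1, and CML41 rose 1.41-fold. The direction of difference from the other mutant was mixed, with 2 of the 8 higher and 2 lower in vtc1 than in abi4-102. In abi4-102 against wild type 6 of the 8 calmodulin-like genes were higher and 0 lower.

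Hormone-linked defence genes were thinly covered. All 4 measured genes of salicylic acid and EDS1 signalling rose, of 36 listed, and AT4G26120 of that list rose from control level to 22.4 ± 1.13 (SD, n = 4), at least 1.28-fold. Of 5 measured jasmonate genes, 4 rose. They included the transcription factors MYC3 and MYC4, partners of MYC2 in jasmonate responses, at 1.28-fold and 1.5-fold, and JRG21, an oxygenase induced by jasmonate, at 1.77-fold. JMT, which methylates jasmonate, was not called (log2 change -0.21), but was called lower with array medians subtracted, with the 7 arrays alone and without vtc1 array 2 (-0.27). Of 7 measured WRKY factors, a family of defence regulators, WRKY47 rose 2.89-fold and WRKY6 1.59-fold beside WRKY53, and WRKY42 fell 1.30-fold, a call lost under spike-in scaling (log2 change -0.14) and without wild-type array 3 (limma adjusted p = 0.0888). RING1, a plasma membrane ubiquitin ligase linked to cell death, rose from 949.9 ± 30.6 (SD, n = 3) to 2509 ± 84.7 (n = 4), 2.64-fold (limma adjusted p = 3.0e-11). CHI, a chitinase by name, rose from 1209 ± 54.8 to 3364 ± 257, 2.78-fold, and ECS1, a cell wall protein linked to pathogen response, rose 1.28-fold. The counts of plant defensins and thionins lay near the shares of all genes and are not read as a change of the family. Of 12 measured genes 2 rose and 3 fell, with 5 higher and 1 lower under spike-in scaling. Their log2 changes ran from -0.55 to 0.40, with a median of -0.02. Of these genes, 7 were lower and 1 higher in vtc1 than in the other mutant. In the berberine bridge-like family, some of whose members oxidise small defence metabolites, 9 of 22 measured genes rose and 1 fell, with 13 higher and 0 lower under spike-in scaling. AT1G26380 rose 3.06-fold, from 20.2 ± 2.62 to 64.2 ± 12.0, and AT1G26420, at control level in wild type, rose at least 1.05-fold. Their neighbours AT1G26400 and AT1G26410 were at control level in both groups. The subtilase SBT3.3, a secreted protease linked to immune priming, rose 2.36-fold, the largest of 11 measured subtilases. Of these 2 rose and 3 fell, near the shares of all genes, with 5 higher and 2 lower under spike-in scaling.

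**Figure D3:**
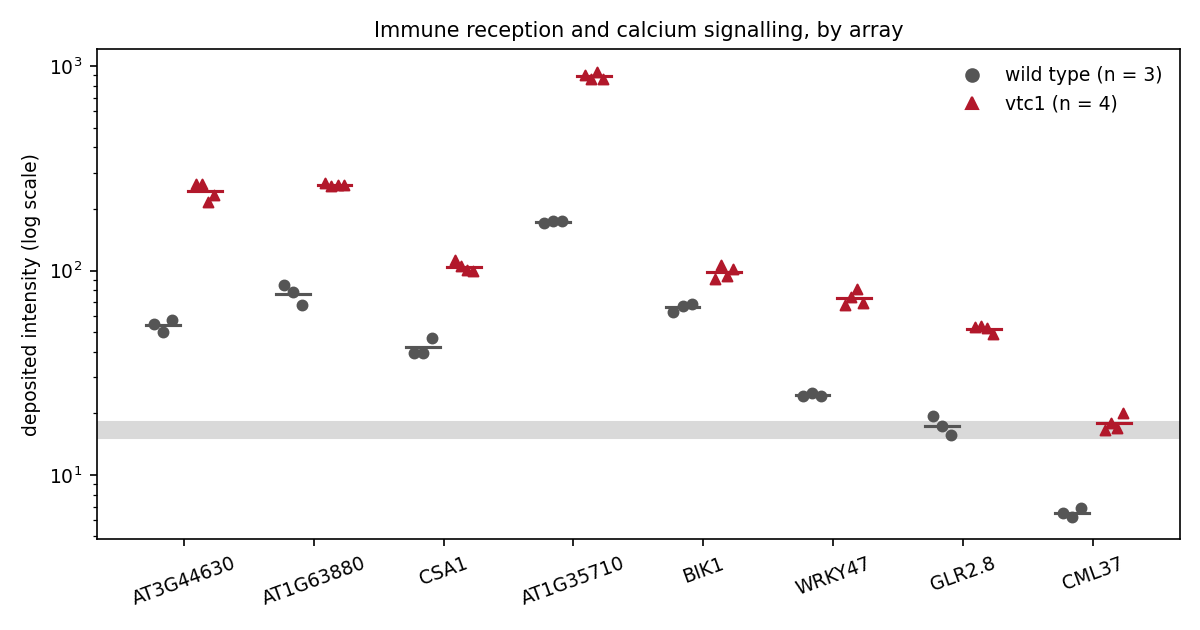
Intensity of 8 genes of immune reception and calcium signalling on each array (log scale), drawn as circles for wild type (n = 3) and triangles for vtc1 (n = 4) with a bar at each group's mean. The grey band spans the highest Bacillus control level over the 7 arrays (15.2 to 18.1). On the wild-type arrays CML37 lies below it and GLR2.8 in or just above it.

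Transcripts of the plastid genome fell, and none was called higher. Of 69 plastid-encoded genes with a probe set of their own, 54 fell and 0 rose, against 18.2% and 15.2% of all genes. The median log2 change was -0.50. Spike-in scaling, which moves all genes up, left 37 lower and 5 higher with a median of -0.26, when 4.99% of all genes were lower and 42.3% higher under that scaling. All 15 measured genes for plastid ribosomal proteins fell, with a median of -0.69. rps18 read 933, 731 and 710.4 in wild type and 324, 347, 294 and 373 in vtc1, a 2.35-fold fall (limma adjusted p = 7.7e-08). rps4 read 6879.6, 6334 and 6097 in wild type and 3064, 3185, 3249.7 and 3092 in vtc1. In both the highest vtc1 array lay well below the lowest wild-type array. All 4 genes of the plastid-encoded RNA polymerase fell, and rpoC2 was the lowest of them, with 343, 392 and 300.0 in wild type and 98.1, 128, 98.2 and 115 in vtc1, a 3.13-fold fall (limma adjusted p = 1.4e-09). rpoB and rpoC1, cotranscribed with rpoC2, changed by less, -0.55 and -0.48 on the log2 scale.

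The plastid genes of the photosynthetic complexes fell by differing amounts. For photosystem II, 10 of 15 fell, with the reaction centre gene psbA from 2203 ± 199 (SD, n = 3) to 1009 ± 203 (n = 4), a 2.21-fold fall. For the cytochrome b6f complex 5 of 6 fell, with petG, a small subunit, 2.69-fold lower. For the plastid NDH complex, which returns electrons from ferredoxin to plastoquinone, 7 of 10 fell. Within that complex ndhJ and ndhK fell 2.10-fold and 1.91-fold, while ndhA and ndhI were not called, with log2 changes of 0.18 and 0.11. ndhA was called higher without wild-type array 2 (0.24) or vtc1 array 3 (0.20), and under 4 of the other settings tried. For the ATP synthase 4 of 6 fell. For photosystem I 4 of 5 fell, and psaA, a core subunit, was not called, at a log2 change of 0.24. Under spike-in scaling ndhI and psaA were called higher (0.34 and 0.48). rbcL, the large subunit of Rubisco, fell 1.34-fold, a call lost under spike-in scaling (log2 change -0.19). Of the 69 plastid genes, 50 were lower in vtc1 than in abi4-102 and 0 higher, against 21.2% lower over all genes. The fall was partly shared: in abi4-102 against wild type 29 of the 69 were lower and 7 higher, with a median log2 change of -0.14. In that mutant 10 of the 15 ribosomal protein genes and 3 of the 4 RNA polymerase genes were lower. Of the 4 polymerase genes, 2 were lower in vtc1 than in abi4-102. The actin difference between 3' and 5' signal given above moved with genotype as well, and its part in the fall of plastid transcripts was not tested.

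**Figure D4:**
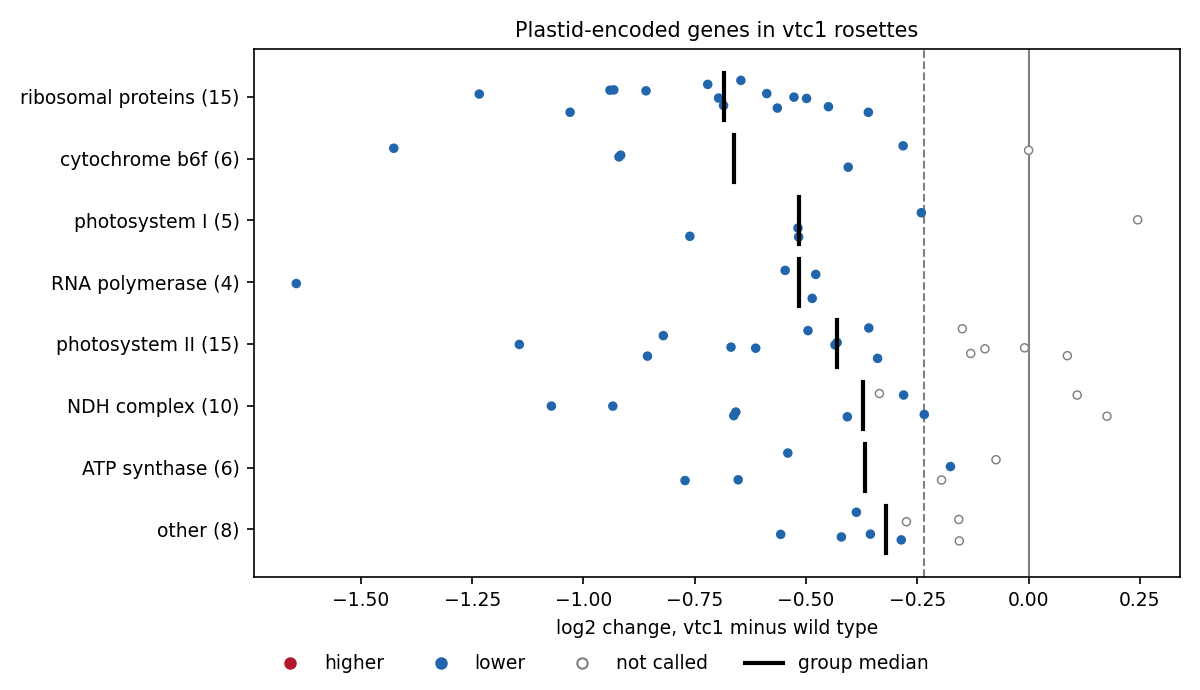
Log2 change (vtc1 minus wild type) of the 69 measured plastid-encoded genes, grouped by complex. Filled points were called at a limma adjusted p under 0.05, the solid line is 0 and the dashed line, 0.24 to its left, marks where a gene unchanged under spike-in scaling would lie. All 15 genes for plastid ribosomal proteins and all 4 RNA polymerase genes were called lower.

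Nuclear genes for chloroplast proteins fell in differing shares, against 18.2% of all genes called lower and 15.2% called higher. The thylakoid lumen, the space inside the photosynthetic membrane, holds assembly and repair factors, and 21 of 24 measured genes for lumen proteins fell with 0 called higher. That list was drawn up after some of its largest falls had been seen, so its count is a description. The group's median log2 change was -0.50, and 15 members were still lower under spike-in scaling. CYTC6A, a cytochrome c6-like protein, had the largest fall. Next came AT1G12250, which read 479, 493 and 481 in wild type and 210.2, 201, 197 and 212 in vtc1, a 2.36-fold fall (limma adjusted p = 8.6e-11), and by AT4G24930, 2.14-fold lower. Without CYTC6A the falls ran from -1.24 to -0.26 on the log2 scale among the called members, the last of which was not called under spike-in scaling. Against abi4-102, 20 of the 24 were lower in vtc1. In abi4-102 against wild type 10 were lower and 1 higher. Among nuclear subunits of the plastid NDH complex NdhL fell from 972 ± 113 (SD, n = 3) to 603 ± 31.7 (n = 4) and NdhN fell from 858 ± 29.8 to 561 ± 26.9, and the other measured one, NdhS, was not called (log2 change -0.14) but was called lower under 2 of the settings tried.

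Genes for the photosystems and antennae themselves changed by small amounts. Over all genes 18.2% were called lower and 15.2% higher, or 30.03% and 26.5% in the brightest of 5 equal parts. Of 13 measured nuclear genes, 5 fell, none of them called under spike-in scaling, where the median of -0.14 turned to 0.09 and 1 member was higher. PSB27, a repair factor of photosystem II, fell 1.20-fold, while LHCB4.3, a minor antenna gene, fell 1.28-fold, and under that scaling their log2 changes were -0.03 and -0.12. Its relatives LHCB4.1 and LHCB4.2 had log2 changes of -0.04 and 0.07 and were not called, although LHCB4.2 was called higher under spike-in scaling (0.30). Of 14 measured genes of chlorophyll and carotenoid synthesis 5 fell, among them CHLI2, a subunit of magnesium chelatase, 1.31-fold, and CHLM, the next enzyme of the branch, 1.23-fold. Under spike-in scaling none of these falls was called (CHLI2 -0.15, CHLM -0.07) and 2 genes of the list were higher. The pigment list likewise had a median below 0 (-0.14) that turned above 0 under spike-in scaling (0.09). For the Calvin cycle and photorespiration 8 of 9 measured genes fell and 0 rose. The largest fall was in AT5G64380, 2.01-fold, from 209.6 ± 15.4 to 103 ± 3.81, followed by AT1G32470, 1.61-fold. Under spike-in scaling 3 of these genes were lower and 1 higher. Of 18 measured genes for RNA editing and pentatricopeptide repeat (PPR) factors and related chlororespiration genes, 8 fell and none was called higher. Under spike-in scaling 5 were lower and 3 higher. The 18 include NdhL, which fell, and NdhS, both given above as subunits of the NDH complex. CRR42 fell 1.72-fold and CRR21, an editing factor for an NDH transcript, 1.61-fold, and the editing factor OTP84 fell 1.54-fold.

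Among genes of cytosolic growth, the ribosomal protein genes shifted down slightly. Of 114 measured genes 39 fell and 3 rose, against 18.2% and 15.2% of all genes. The list was bright, with a median wild-type intensity of 917. In the brightest of 5 equal parts of all genes, 30.03% were called lower and 26.5% higher. The list's median log2 change was -0.09 and turned to 0.14 under spike-in scaling, where 2 were lower and 25 higher. The difference from the other mutant was wider: 86 of the 114 were lower in vtc1 than in abi4-102 and 2 higher, where 21.2% and 14.6% of all genes were. The median log2 change of abi4-102 from the same wild-type arrays was 0.18. AT1G07070 had the largest fall in vtc1, from 212 ± 12.6 (SD, n = 3) to 131 ± 8.93 (n = 4). Of 7 measured tubulin genes, which form microtubules, 4 fell, all of them beta-tubulins. TUB1 read 24.3, 30.7 and 32.8 in wild type and 16.8, 14.8, 14.3 and 16.6 in vtc1, with the vtc1 arrays near control level, a 1.81-fold fall, and TUB6 fell 1.41-fold. The alpha-tubulins TUA1 and TUA6 were not called (log2 changes -0.03 and 0.04), although TUA6 was called higher under spike-in scaling (0.27), where 2 tubulin genes were lower. Histone genes went both ways, with HTB11 and HTB2 rising 1.99-fold and 1.38-fold and HTB1, another histone H2B gene, falling 1.65-fold.

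Cell wall genes had more falls than rises in 2 families, and more rises than falls under spike-in scaling. Over all genes 15.2% were called higher and 18.2% lower, or 42.3% and 4.99% under that scaling. Of 29 measured expansins and xyloglucan endotransglucosylases, which loosen growing walls, 7 fell and 1 rose. EXPA16 fell 1.72-fold, from 59.3 ± 7.52 to 33.8 ± 0.689, and EXPB1 1.46-fold. The family median was 0.01, and 2 members were lower and 16 higher under spike-in scaling. Of 23 measured TBL genes, whose known members acetylate wall polysaccharides, 7 fell and 3 rose, with 3 lower and 10 higher under that scaling. TBL38 read 103, 113 and 129 in wild type and 40.3, 39.6, 37.9 and 36.7 in vtc1, a 2.91-fold fall (limma adjusted p = 1.0e-10), and TBL26 fell 1.81-fold. In the cellulose synthase superfamily CSLA01, of the clade that makes mannan from GDP-mannose, had the largest fall, and its relative CSLA03 rose 1.22-fold. CSLC04, a synthase of the xyloglucan backbone, rose 1.44-fold, from 313 ± 26.5 to 450.1 ± 19.6. Lipid transfer proteins, small secreted proteins of the cuticle and of defence, went both ways. Of 42 measured genes 4 rose and 9 fell, with 11 higher and 6 lower under spike-in scaling. AT4G12500 rose from control level to 48.6, 59.0, 55.0 and 57.0 on the vtc1 arrays, at least 3.07-fold. AT1G48750 fell 3.86-fold, from 389 ± 14.1 to 100.2 ± 5.36, and AT3G53980 2.69-fold.

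Cold-regulated genes fell as a group. Of 7 measured genes of the CBF and cold list 6 fell and 1 rose, against 18.2% and 15.2% of all genes. The median log2 change was -0.69, and 6 were lower and 1 higher under spike-in scaling. AT1G16850 read 581, 557 and 482 in wild type and 203, 173, 177 and 181 in vtc1. It was the largest fall of the list, 2.93-fold (limma adjusted p = 1.5e-10). LTI30, a dehydrin, read 2031, 2096 and 2058 in wild type and 1119.9, 1222, 1092 and 1154 in vtc1, a 1.80-fold fall (limma adjusted p = 1.5e-08). All 6 genes that fell were also lower in vtc1 than in abi4-102, in which the list's median log2 change was 0.15. The exception in vtc1 was DI21, a drought-induced gene, which rose 1.33-fold. The family of late embryogenesis abundant proteins and dehydrins, with 13 measured genes, overlaps the cold list. In all 2 of the 13 rose and 6 fell, with 3 higher and 5 lower under spike-in scaling. Outside the cold list, COR27, also a circadian gene, and AT1G54410 fell, with log2 changes of -1.57 and -0.41. LEA4-5 was not called (-0.22), although it was called lower without wild-type array 1 (-0.29) and under 4 of the other settings tried. AT2G46140, also called LEA27, rose 1.23-fold. The clock-linked gene TIC, a regulator of the circadian oscillator, rose 1.36-fold, while the other 4 measured circadian genes fell, 2 of them not called under spike-in scaling.

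Carbon, sulphur and iron genes went both ways within their lists. AMY1, an alpha-amylase secreted from stressed leaf cells, read 194, 202 and 175 in wild type and 342, 389, 361 and 369.9 in vtc1, a 1.92-fold rise (limma adjusted p = 2.9e-08). Of the large subunits of ADP-glucose pyrophosphorylase, the first enzyme of starch synthesis, APL4 fell 2.05-fold, from 58.4 ± 1.55 to 28.1 ± 2.53, while APL3 rose. The sucrose exporter SWEET11 rose 1.29-fold and SWEET13 1.53-fold, whereas the vacuolar sugar carriers SWEET17 and SWEET16 fell 1.46-fold and 1.38-fold, the second a call lost under spike-in scaling (log2 change -0.23). Of 16 measured genes of that family 3 rose and 4 fell, near the 15.2% and 18.2% of all genes, with 7 higher and 1 lower under that scaling. APS4, an ATP sulphurylase, rose 2.25-fold, from 279 ± 4.82 (SD, n = 3) to 629 ± 18.3 (n = 4), and its relative APS3 fell 1.26-fold, a call lost under spike-in scaling (log2 change -0.10). NDB2, an external NADH dehydrogenase of mitochondria that bypasses complex I, rose 2.21-fold, from 187 ± 16.3 to 413 ± 13, and NDB1 fell 1.23-fold, a call also lost under that scaling (-0.06). In iron homeostasis 4 of 8 measured genes fell, with AT5G05250 the largest fall at 1.41-fold, and 1 rose, AT1G18910 at 1.83-fold, with 1 lower and 2 higher under spike-in scaling.

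Redox and detoxification families were mixed, with opposite changes of close relatives. Over all genes 15.2% were called higher and 18.2% lower. The counts for thioredoxins and glutaredoxins, cytochromes P450, UDP-glycosyltransferases and beta-glucosidases below lay near those shares. They are therefore not read as a change of the family. Methionine sulphoxide reductases repair oxidised methionine. Beside the rise of MSRB9, MSRB5 fell, from 525, 479 and 487 in wild type to 205, 223, 220.2 and 197 in vtc1, a 2.34-fold fall (limma adjusted p = 4.1e-10), and MSRB3, MSRB6 and MSRA5 were not called. Of 13 measured thioredoxins and glutaredoxins 3 rose and 3 fell, with 6 higher and 0 lower under spike-in scaling. GRX480, a glutaredoxin of salicylic acid responses, GRXC1 and TO2 rose, with log2 changes of 1.05, 0.69 and 0.23, TO2 losing its call without wild-type array 2 or 3 (limma adjusted p = 0.0608 and 0.0559). The falls were in ty2, TO1 and NTRC, a plastid reductase with its own thioredoxin domain, at -0.40, -0.29 and -0.29. Of 14 measured glutathione transferases 5 fell and 1 rose, with 1 lower and 5 higher under spike-in scaling. GSTU16 fell 1.51-fold and GSTU20 1.31-fold, the second a call lost under that scaling (log2 change -0.16). The measured cytochromes P450 were mostly of the CYP71B subfamily, and 5 of 22 rose and 3 fell. CYP71B24 read 49.4, 39.2 and 35.3 in wild type and 93.0, 102, 94.9 and 122 in vtc1, a 2.47-fold rise. CYP71B36, CYP71B26 and CYP71B23 rose 1.90-fold, 1.73-fold and 1.72-fold, while CYP71B34 and CYP71B35, which carry neighbouring locus codes, fell 1.43-fold and 1.44-fold. Of 51 measured UDP-glycosyltransferases 9 rose and 8 fell, with 23 higher and 5 lower under spike-in scaling. UGT76C2, which glucosylates cytokinins, fell 1.70-fold and UGT84A3, which makes sinapate esters, 1.63-fold. Among the beta-glucosidases BGLU31, at control level in wild type, rose to 21.8 ± 4.80 (SD, n = 4), at least 1.23-fold, and BGLU25 rose 2.19-fold. Of 22 measured genes of that family 4 rose and 3 fell, with 10 higher and 0 lower under spike-in scaling.

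Among developmental regulators, few MADS-box genes stood above control level. Of 41 measured genes 29 lay at or below control level on all 7 arrays. In all 2 rose and 6 fell, against 15.2% and 18.2% of all genes, with 15 higher and 3 lower under spike-in scaling. AGL42, related to the floral integrator SOC1, fell to control level from 35.6, 39.8 and 40.6 on the wild-type arrays, at least 2.33-fold (limma adjusted p = 4.9e-10). AGL24, a promoter of flowering, fell 1.40-fold, from 45.5 ± 5.44 to 32.0 ± 1.36, and AGL19, which also promotes flowering, rose 1.90-fold, from 44.0 ± 6.31 to 83.9 ± 6.04. Autophagy genes, which serve bulk turnover, rose in 6 of 16 measured cases and fell in 1. ATG8D rose 1.41-fold and APG8A 1.30-fold, and ATG8B fell 1.21-fold, a call lost under spike-in scaling (log2 change -0.03) and on leaving out any 1 of the 3 wild-type arrays or one of vtc1 arrays 1 and 3 (limma adjusted p = 0.0557 to 0.144), and with a pseudocount of 16 (0.0738). Of 9 measured U-box ubiquitin ligases 3 rose and 1 fell. Of the related PUB22, PUB23 and PUB24, known as dampers of immune signalling, PUB24 rose 1.53-fold and PUB23 1.40-fold, and PUB22 was not called (log2 change -0.13). PUB43 rose 1.35-fold and PUB19 fell 1.42-fold.

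Beyond these groups, ranks 11 to 30 of the rises and falls by log2 change held mainly genes without a symbol. Of the rises, 4 belonged to groups described above: AT3G44630, AT1G63880, AT1G51890 and AT4G12500. AT1G76960, which was also among the 10 largest rises in intensity, rose 4.40-fold, from 418, 387 and 378 in wild type to 1699, 1868, 1704 and 1687 in vtc1. SAL2, of the family of phosphoadenosine phosphate phosphatases, rose 4.31-fold, from 62.4 ± 4.27 (SD, n = 3) to 272 ± 13.6 (n = 4). The other rises of these ranks ran from 3.46-fold in AT3G48080 to 4.43-fold in AT2G44240. Among the falls, rpoC2, petG, TBL38, AT1G48750 and AT1G16850 are described above, and the falls of these ranks ran from 2.69-fold in petG to 4.04-fold in AT3G55940. AT2G43550 fell from 1198, 1136 and 1136 in wild type to 332, 331, 304 and 358 in vtc1, 3.49-fold, and AT3G28220 from 1629.9 ± 74.3 to 563 ± 40.8, 2.89-fold. In abi4-102 the log2 changes of these genes from the same wild-type arrays were -0.08 and -0.26, and the difference between the mutants was called (limma adjusted p = 6.2e-11 and 1.3e-09). AT3G15450 fell from 1865 ± 84.9 to 704 ± 18.3 and AT3G62550 from 4235 ± 128 to 2171 ± 120.1, each among the 10 largest falls in intensity. The largest fall in intensity was that of rps4, given above.

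Genes called in 1 direction also lay side by side. Runs of neighbouring measured genes, with at most 2 unmeasured genes between them, were counted from 3 genes up. There were 88, of which the 4 longest lay on the plastid genome and fell, with 10 genes from petL to psbN in the longest. The nuclear genome held 80 runs, 38 higher and 42 lower, none longer than 5 genes. The first run of 5 that fell, on chromosome 1, held bHLH115, an iron-linked transcription factor (log2 change -0.49), AT1G51080 (-0.97), AT1G51090 (-0.62), the NDH assembly factor CRR41 (-0.65) and AT1G51110 (-0.71). The first run of 5 that rose, on the same chromosome, held AT1G68570, also called NPF3.1 (0.88), AT1G68580 (0.43), AT1G68585 (0.20), AT1G68600 (0.63) and AT1G68620 (1.84), and AT1G68585 lost its call without wild-type array 2 or 3 or vtc1 array 1 (limma adjusted p = 0.0598 to 0.110) and with array medians subtracted (0.0795). With 33.4% of all genes called, such runs are a description of position.

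How often a gene was called also followed its signal. When the 13355 genes were ranked by mean intensity and cut into 5 equal parts, 0.973% of the dimmest part were called higher and 4.19% lower, against 26.5% and 30.03% of the brightest part. The dimmest part reached up to a mean intensity of 9.44. The median wild-type intensity of the MADS-box genes (8.92) and of the berberine bridge-like genes (8.97) lay within it, while that of the NLR receptors was 21.7. The brightest part began at 167, and the medians of the cytosolic ribosomal (917), photosystem (5908) and pigment (389) lists lay above that. So did, among others, those for endoplasmic reticulum folding (221), COPI and COPII coats (173) and the thylakoid lumen (500). The Calvin cycle (2503), plastid-encoded (1028) and cold (2346) lists did as well. For these bright lists the 26.5% called higher and 30.03% called lower in that part are a closer comparison than the shares of all genes.

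**Figure D5:**
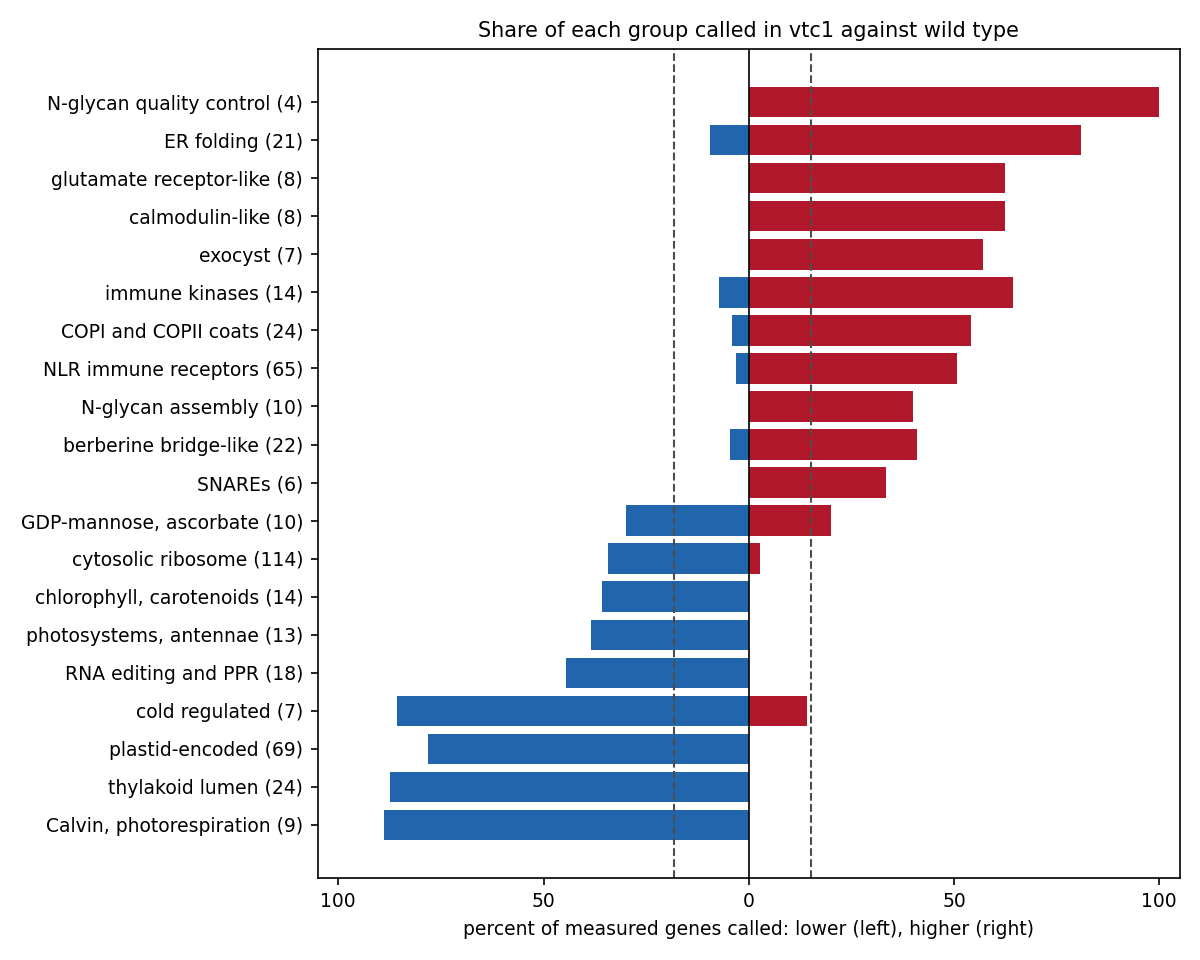
Percent of the measured genes of each of 20 groups called higher (bars to the right) and lower (bars to the left) in vtc1 against wild type, at a limma adjusted p under 0.05. The dashed lines mark the share of all 13355 genes (15.2% higher, 18.2% lower), and the number beside each name is the count of measured genes.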

How the data were processed

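RNA of whole rosettes was hybridised as biotin-labelled cRNA to single-colour arrays, per the labels' protocols. The values are the linear intensity of each probe set as deposited by the authors; how they were summarised and scaled, and the scanner software, are not given in the sources used here. They were analysed as log2(intensity + 1) of the deposited values. A limma model (version 3.58.1, R 4.3.3) with a mean per genotype was fitted to all 10 arrays and 22746 probe sets, after 64 control probe sets were left out, so the 3 genotypes share 1 estimate of the spread. The tests were two-sided, and calls were made at a Benjamini-Hochberg adjusted p under 0.05 over the whole array. The number of arrays limits the precision, and the median standard error of a log2 change was 0.07. Of the probe sets, 13513 pair with 1 gene in the platform annotation, 503 with several and 8730 are unnamed in it; 13484 of the first kind matched the RefSeq gene table. Where several probe sets pair with a gene, the one of highest mean intensity stood for it, which gave 13355 genes, and 1535 of them had a symbol other than the locus code.

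Gene lists and families were described by counts and medians, with no test of a list. The groups, lists and genes were chosen with earlier results of these data known. Genes were named by ranks 11 to 30 of the change in each direction, the 10 largest differences in intensity in each direction, up to 4 called members of each group in each direction, and the 6 longest runs of called neighbours. Further genes, among them those that were not called, were chosen after their values were seen. A fold from a group at or below the highest Bacillus control probe set on all its arrays is a bound, taken against that control level. Alternatives covered the pseudocount (16), a filter on dim probe sets, 3 other scalings, the 7 arrays alone, a replicate block and each array left out. The fit was tested on simulated data. Promoter motifs were not analysed here. Figures were drawn with matplotlib 3.10.9 in Python 3.11.15.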

Additional observations from a re-analysis of the deposited data

Results flagged for a closer look

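For 10 of the genes named above, 1 of the 4 vtc1 arrays stood far from the other 3, by a criterion that chance meets in about 1 in 20 groups, and 191 genes were looked at. On vtc1 array 1, AT1G51110 (242.8 against 205.3 to 209.03), AT1G72900 (89.1 against 80.8 to 81.9) and GLR3.5 (52.0 against 44.8 to 45.5) were high, and WRKY42 (12.3 against 16.2 to 17.0) and psaA (571.1 against 780.2 to 830.3) were low. On vtc1 array 2, AT1G76960 (1868 against 1687 to 1704) and ATG8D (353 against 333 to 336) were high and BZIP28 (207 against 224 to 227) was low. On vtc1 array 3, SEC6 (169.7 against 208 to 209.8) and ndhA (1001 against 1058 to 1067) were low. Without that array the limma log2 change was 0.57 for SEC6, 0.43 for BZIP28, -0.27 for WRKY42, 0.37 for psaA and 0.20 for ndhA, and of these 10 genes only ndhA crossed the threshold, becoming called.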

How the results depend on the processing

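The count of probe sets called lay between 7267 and 9375 under every alternative but spike-in scaling, which gave 11491. Spike-in scaling also moved the split, to 10274 higher and 1217 lower, and subtraction of each array's median gave 3410 and 5965. Leaving out 1 array at a time gave 7267 to 8057 calls, 3537 to 3983 higher and 3621 to 4074 lower. Of the 191 genes named, 21 lost their call under spike-in scaling, 11 gained one, and 2 turned from lower to a change above 0 without a call, RCA at 0.0729 and AT5G18600 at 0.0222. The other scalings, the pseudocount, the filter, the 7 arrays alone and the replicate block cost at most 5 of the 191 genes their call, and leaving out 1 array at most 9. The filter left 5 of these genes without a value. With the replicate number as a block 7414 probe sets were called, 3764 higher and 3650 lower. Deviations of same-numbered wild-type and vtc1 arrays correlated at 0.09, 0.04 and 0.10, so the numbers were not taken as pairs, although each wild-type array correlated best with its own number. The dim filter moved the median log2 change of the NLR receptors to 0.59 and of the immune kinases to 0.88, since it drops dim members. Signal over background limits the result: 4500 genes lay at or below control level on all 7 arrays.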
